A study of Mus musculus with 14 samples.

Results

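Interferon-stimulated genes are the genes that a cell switches on when interferon binds its receptors. The 40 genes described here were taken by symbol from the deposited gene table, which holds 49315 genes. All 40 were found, and all 40 were among the 15292 genes that passed the filter on low counts. The list was compared over 4 groups of mouse left ventricles: WT-Sham (n = 4), HCN4F-Sham (n = 4), WT-TAC (n = 2) and HCN4F-TAC (n = 4). HCN4F mice carry a knock-in exchange of tyrosine for phenylalanine in exon 4 of Hcn4, the pacemaker channel gene. The exchange is present in every cell of the animal, and its zygosity is not given in the sources used here. TAC, transverse aortic constriction, narrows the aorta and loads the ventricle with pressure, and Sham animals underwent the operation without it. Male mice were operated at 10 to 12 weeks of age and their hearts were taken 5 weeks later. The groups addressed whether a raised HCN4 activity alters the response of the ventricle to pressure overload. The gene counts cannot show the base exchange, so the genotype rests on the labels.

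Type I interferons bind the receptor made of IFNAR1 and IFNAR2 and activate a complex that contains STAT2 and IRF9. This complex binds the interferon-stimulated response element (ISRE). Interferon gamma binds IFNGR1 and IFNGR2 and acts through the gamma-activated site (GAS) to induce IRF1 and many GTPases of the guanylate-binding (GBP) and immunity-related (IRG) families. In the heart, cardiomyocytes, endothelial cells, fibroblasts and macrophages can all respond to interferon, and a low basal level is present without infection.

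The RefSeq promoter windows of assembly GRCm38.p6, from 250 bases before to 50 bases after each gene start, were searched on both strands for ISRE letters (TTTC and TTTC with any 2 bases between them) and GAS letters (TTCNNNGAA), with overlapping matches allowed. Windows were present for 30 of the 40 genes. The ISRE letters were found in 18 of these 30 genes (60%) and in 3.99% of all 27025 genes with a window. GAS letters were found in 9 of the 30 (30%), against 9.55% of all genes. Both motifs were found in 6 of the 30 (20%), against 0.614%. Of the GBP and IRG GTPases, 6 of the 6 with a window held the ISRE letters, as did 3 of the 4 IFIT genes. A match is a description of these letters and does not show binding.

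The windows around the ISRE match nearest the gene start are shown for the 8 genes named by their tests or levels whose match has 10 bases on either side within the window, because the same short word recurs in GTPase, IFIT and signalling genes. The match of Ifih1, which began at position 32 after the gene start, lay too near the end of its window and is not shown. Capitals mark the match and lower case its flanks, and each sequence reads 5′ to 3′ along the strand of the gene. Relative to the gene start, the matches shown began at positions from -222 (Stat2) to -24 (Irgm1).
Irgm1 (chr11:48871425-48871454, minus strand): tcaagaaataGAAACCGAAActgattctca
Igtp (chr11:58199512-58199541, plus strand): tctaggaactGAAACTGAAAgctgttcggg
Irgm2 (chr11:58214903-58214932, plus strand): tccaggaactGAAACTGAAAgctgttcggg
Isg15 (chr4:156200865-156200894, minus strand): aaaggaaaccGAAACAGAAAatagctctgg
Ifit3 (chr19:34583397-34583426, plus strand): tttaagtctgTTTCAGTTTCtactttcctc
Ifit1 (chr19:34640794-34640823, plus strand): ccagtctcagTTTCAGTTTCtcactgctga
Stat2 (chr10:128270266-128270295, plus strand): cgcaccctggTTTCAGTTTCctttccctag
Bst2 (chr8:71537577-71537606, minus strand): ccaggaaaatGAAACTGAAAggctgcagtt
In 6 of the 8 windows the match was the same 10 letters or their reverse complement. The windows of Igtp and Irgm2, neighbouring IRG genes, were identical at 29 of 30 bases.

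Library totals ranged from 22309914 to 35210939 counted reads. Values are given as CPM, reads scaled to a common library total and corrected for library composition, in the order of replicates 1 to 4 (replicates 2 and 3 for WT-TAC). Per kilobase of exon, Bst2 (tetherin, which holds budding viruses at the cell surface) had the highest mean level at 25.9 CPM per kb. It was followed by Ifi27l2a at 14.3, Lgals3bp at 11.5, Ifi35 at 7.88 and Irf1 at 5.49 CPM per kb. The lowest level per length belonged to Mx1 at 0.0606 CPM per kb, with 2 to 14 reads per library, and the next to Zbp1 at 0.191 CPM per kb, with 6 to 44 reads. The other 38 genes had at least 30 reads in every library. Counting error is largest in Mx1 and Zbp1 and also bears on other genes with few reads. Examples are Dhx58 (31 to 67 reads per library) and Ifit3b (37 to 101 reads).

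To give one value per library, the log2 CPM of each of the 40 genes was set relative to its WT-Sham mean and the median over genes was taken. This level was 0.093, 0.065, -0.16 and 0.016 in the WT-Sham libraries. HCN4F-Sham gave -0.13, 0.31, 0.30 and 0.30, so that 3 libraries lay above every WT-Sham library and replicate 1 did not. WT-TAC gave -0.33 and -0.035, and HCN4F-TAC gave 0.30, 0.31, 0.0028 and 0.29. After TAC, the HCN4F libraries all lay above both WT libraries, with the smallest gap at HCN4F-TAC replicate 3.

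Single libraries set much of this spread. HCN4F-Sham replicate 1 was the lowest of its group in 29 of the 40 genes, against 26.8% of all genes tested. HCN4F-TAC replicate 3 was the lowest of its group in 26 (26.6% of all genes), and WT-TAC replicate 2 was the lower of its pair in 36 (49.8% of all genes). WT-TAC replicate 2 was also the lowest of all 14 libraries in 22 of the genes, against 7.38% of all genes. At the upper end, HCN4F-TAC replicate 2 was the highest of all 14 libraries in 14 of the genes, against 12.1% of all genes. Its share of mitochondrial reads was 13.9%, against 16.8% to 23.1% in the other libraries, and it had the lowest cardiomyocyte marker sum (51571 CPM) and the highest red blood cell marker sum (347 CPM). Without it, all 39 genes then tested kept a positive difference between the genotypes after TAC, with 14 at an unadjusted p under 0.05. No share of all genes is given here for that fit.

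Sums of cell markers differed in some of these libraries, but not all in the same direction. The summed CPM of 6 endothelial markers was 667 in HCN4F-Sham replicate 1 and 949 to 1253 in the others of that group, 779 and 1002 in WT-TAC, 820 to 962 in WT-Sham and 887 to 966 in HCN4F-TAC. The sum of 7 macrophage markers was 165 in HCN4F-TAC replicate 3 and 206 to 258 in the others of that group, with 161 to 195 in WT-Sham, 172 to 226 in HCN4F-Sham and 161 and 173 in WT-TAC. In the opposite direction, HCN4F-Sham replicate 1 had the highest macrophage sum of its group (226 CPM). HCN4F-TAC replicate 3 had the highest endothelial sum of its group (966 CPM). The neutrophil marker Ly6g had 0 reads in every library, and plasmacytoid dendritic markers summed to at most 0.407 CPM. The cardiomyocyte markers summed to between 51571 and 74959 CPM, as the tissue label implies. The part of cell composition in the results was not tested, and in bulk tissue fewer cells of a type and less RNA per cell cannot be told apart.

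**Figure D1:**
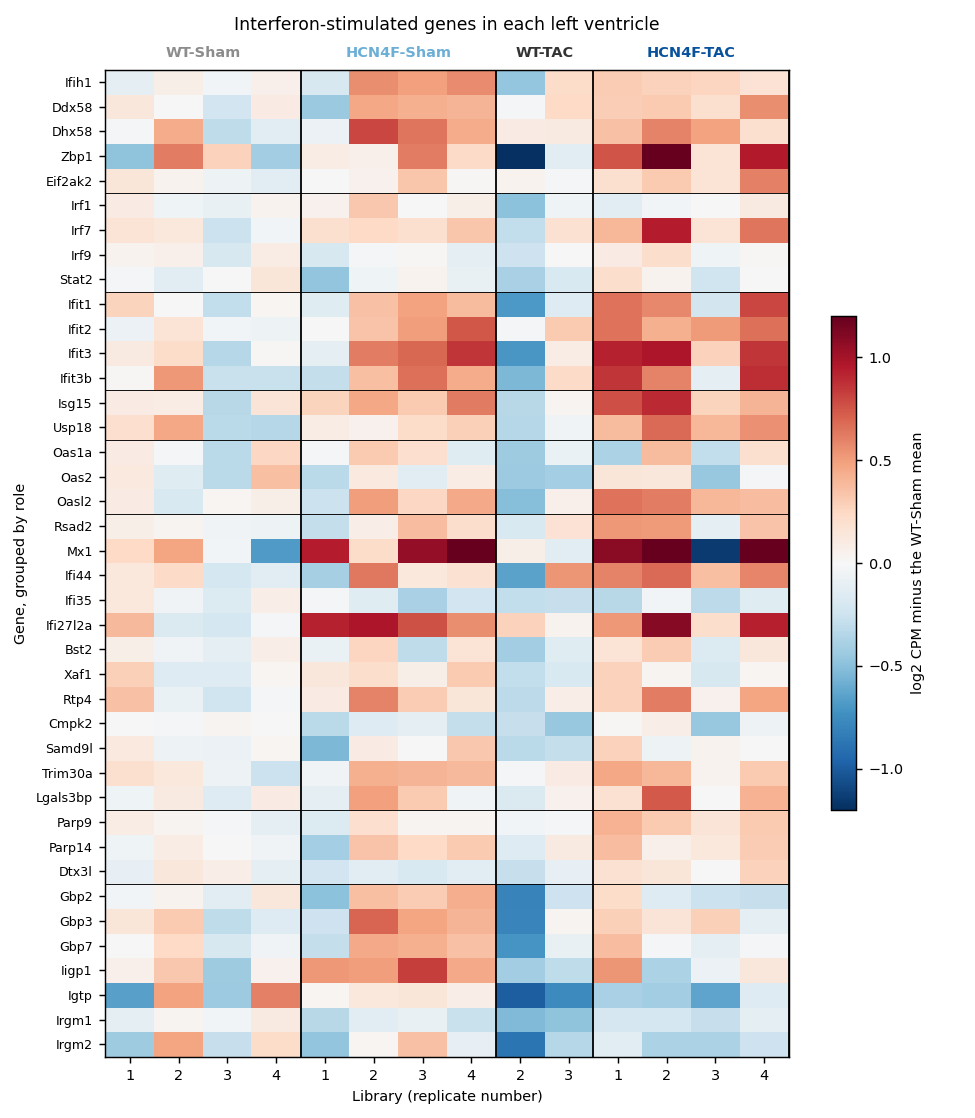
Difference of log2 CPM from the WT-Sham mean (colour, saturated beyond 1.2 in either direction) for the 40 genes (rows, grouped by role) in the 14 libraries (columns). HCN4F-Sham replicate 1, HCN4F-TAC replicate 3 and WT-TAC replicate 2 are paler or bluer than the other libraries of their groups over most genes.

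**Figure D2:**
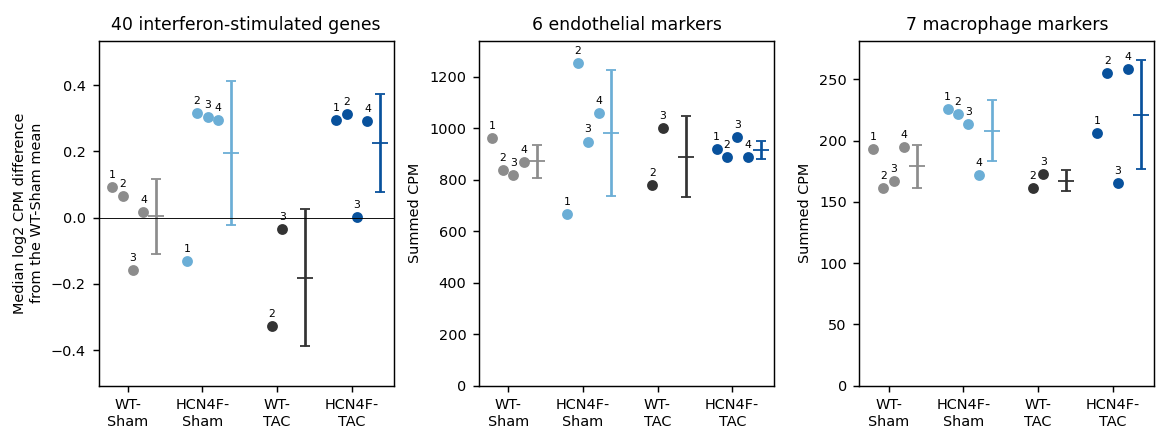
Left, median over the 40 genes of the log2 CPM difference from the WT-Sham mean; middle and right, summed CPM of 6 endothelial and 7 macrophage markers. Points are libraries with their replicate number, and bars give the group mean with its SD (n = 4, or 2 for WT-TAC). The 4 HCN4F-TAC libraries sit between 0.0028 and 0.31 on the left, above the WT-TAC libraries at -0.33 and -0.035.

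The comparison of HCN4F-TAC with WT-TAC asked whether the loaded ventricles of both genotypes differed. All 40 genes had a higher fitted mean in HCN4F-TAC, with log2 fold changes from 0.082 (Ifi35) to 1.38 (Zbp1) and a median of 0.39, while 50.7% of all genes tested were higher and their median was 0.0036. None of the 40 passed at an adjusted p under 0.05 in edgeR (quasi-likelihood test, with p adjusted by Benjamini and Hochberg over all genes), and 0.111% of all genes did. At an unadjusted p under 0.05 there were 19 of the 40, all higher in HCN4F-TAC (47.5%), against 7.45% of all genes higher and 5% lower. DESeq2, fitted on all groups, passed 1, Ifit3, and the share of all genes it passed is not given here. In 13 genes (32.5%) every HCN4F-TAC library lay above both WT-TAC libraries, against 11.3% of all genes.

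The IFIT genes and the ubiquitin-like ISG15 system had the highest median differences among the roles. Of the IFIT proteins, IFIT1 binds viral RNA that lacks host cap marks. Ifit3 measured 2.92 and 5.04 CPM in WT-TAC and 9.0, 9.25, 5.72 and 8.58 CPM in HCN4F-TAC, without overlap. Its log2 fold change was 1.01 (SE 0.275, adjusted p = 0.162 in edgeR). Ifit1 measured 2.22 and 3.21 CPM in WT-TAC and 5.60, 5.33, 3.07 and 6.22 CPM in HCN4F-TAC. There HCN4F-TAC replicate 3 lay between the WT libraries, and the log2 fold change was 0.88 (SE 0.258, adjusted p = 0.177 in edgeR). Ifit2 was at 10.8 and 13.5 against 17.1, 14.6, 15.4 and 17.2 CPM, again without overlap, at a log2 fold change of 0.40 (SE 0.159).

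Isg15 encodes the ubiquitin-like protein that is attached to other proteins during the interferon response, and Usp18 the protease that removes it and damps receptor signalling. Isg15 measured 2.34 and 3.01 CPM in WT-TAC and 5.02, 5.47, 3.53 and 3.91 CPM in HCN4F-TAC. These groups did not overlap, and the log2 fold change was 0.73 (SE 0.205, adjusted p = 0.162 in edgeR). Usp18 did not overlap either, with 2.26 and 2.78 CPM in WT-TAC and 3.73 to 4.58 CPM in HCN4F-TAC.

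Oasl2, a member of the oligoadenylate synthetase family, measured 4.19 and 6.24 CPM in WT-TAC and 9.37, 9.19, 7.91 and 7.73 CPM in HCN4F-TAC. Its log2 fold change was 0.70 (SE 0.194, adjusted p = 0.162 in edgeR), and every HCN4F library was above both WT libraries. The nucleic acid sensor Zbp1 had the highest fold change from few reads, with 0.246 and 0.515 CPM in WT-TAC and 0.954, 1.45, 0.636 and 1.10 CPM in HCN4F-TAC. Its log2 fold change was 1.38 (SE 0.414, adjusted p = 0.181 in edgeR), again without overlap. The sensors Dhx58 and Eif2ak2 (the kinase PKR) were the other sensors whose groups did not overlap. For Dhx58, at 31 to 67 reads per library, the gap was narrow, with 1.56 and 1.57 CPM in WT-TAC and 1.67 to 2.21 CPM in HCN4F-TAC.

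Transcription factors of the pathway had smaller differences. Irf7, which amplifies type I interferon transcription, measured 6.90 and 9.62 CPM in WT-TAC and 11.2, 16.3, 9.50 and 13.2 CPM in HCN4F-TAC, with a log2 fold change of 0.59 (SE 0.186, adjusted p = 0.197 in edgeR). Stat2 measured 10.9 and 12.6 CPM against 16.5, 14.7, 12.1 and 14.4 CPM, and the log2 fold change was 0.29 (SE 0.144). In both genes HCN4F-TAC replicate 3 lay within the WT range. Over the 4 transcription factors the median log2 fold change was 0.26, against 0.78 over the 4 IFIT genes and 0.42 over the 7 GTPases.

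One library decided how many genes passed here. Without HCN4F-TAC replicate 3, 5 of the 40 genes passed in edgeR: Ifit1, Ifit3, Irf7, Isg15 and Zbp1, with a smallest adjusted p of 0.0132. The share of all genes that passed in that fit is not given here. HCN4F-TAC replicate 3 had the lowest macrophage (165 CPM), fibroblast (538), monocyte (2.12) and B cell (1.98) marker sums of its group. It also had the highest neutrophil (3.43) and endothelial (966) sums. All 40 genes remained positive without HCN4F-TAC replicate 3, as they did without either WT-TAC library. No other library, left out in turn, gave a pass. Leaving out WT-TAC replicate 2 gave a median log2 fold change of 0.28, and leaving out replicate 3 of that group gave 0.52, so that the size differed with the WT library used. The log2 fold change of Oasl2 was 0.45 without WT-TAC replicate 2 and 1.03 without replicate 3, and that of Zbp1 was 1.00 and 2.05. Fibroblast markers were higher in HCN4F-TAC in 5 of 5 without overlap (538 to 935 against 487 and 425 summed CPM), and macrophage markers in 7 of 7, of which 2 did not overlap. Endothelial markers were higher in 4 of 6, with a median log2 fold change of 0.042. Both tested monocyte markers were higher in HCN4F-TAC without overlap (2.12 to 4.89 against 0.986 and 1.83 summed CPM). Of these, Ly6c2 had only 4 to 20 reads per library, and its nearest libraries were at 0.283 and 0.258 CPM. Plac8, too low to be tested, overlapped. B cell markers summed to 1.98 to 3.70 CPM in HCN4F-TAC and 1.23 and 1.60 CPM in WT-TAC, and T and natural killer cell markers to 2.26 to 3.29 against 1.85 and 2.09 CPM, both sums without overlap. Of the 2 tested B cell markers, 1 did not overlap. Cd4, the only tested T and natural killer cell marker, overlapped, at 1.27 to 1.75 against 1.44 and 1.40 CPM (log2 fold change 0.15). Cardiomyocyte markers were lower in 6 of 6, of which 3 did not overlap (51571 to 61407 against 65940 and 67545 summed CPM). Of all genes, 11.3% were higher and 11% were lower without overlap in this comparison. None of these markers passed in edgeR. Nppa, an atrial gene that ventricles also express under load, measured 554, 1832, 410 and 1179 CPM in HCN4F-TAC and 244 and 195 CPM in WT-TAC. Its log2 fold change was 2.18 (adjusted p = 0.181 in edgeR). The study, with 4 samples per group, reports that Nppa rose in both genotypes, with no difference between the TAC groups. Here WT-TAC rests on 2 libraries, so these values and the study's are from unlike sets of samples. The other atrial markers were raised mainly in HCN4F-TAC replicate 2, where Sln was at 3.79, Myl7 at 9.91 and Myl4 at 17.4 CPM, while Sln and Myl7 had 0 reads in replicates 1 and 3. The red blood cell markers summed to 94.8 to 347 CPM against 84.7 and 94.3 CPM. Their part in the result was not tested.

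**Figure D3:**
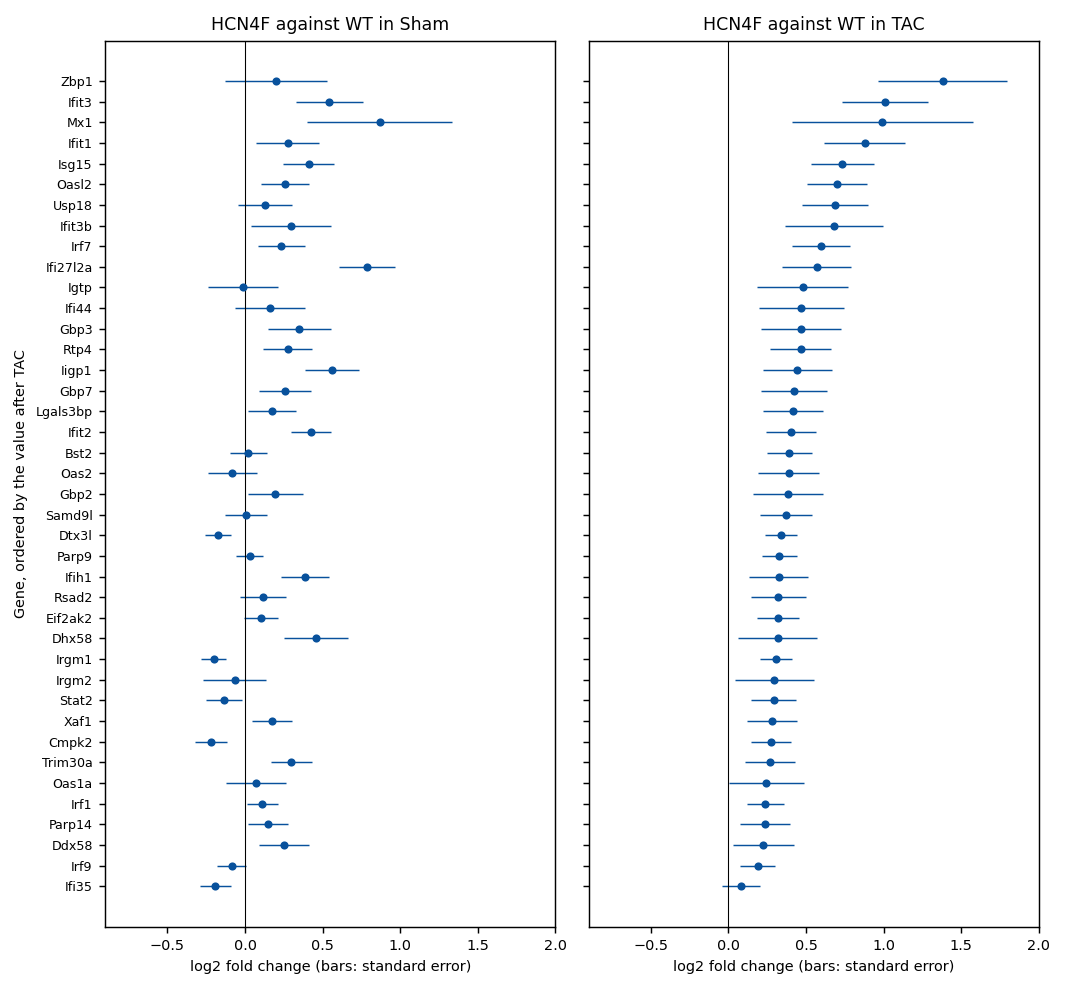
Log2 fold change of HCN4F against WT with its standard error for each of the 40 genes, in Sham (left) and after TAC (right), ordered by the value after TAC. After TAC all 40 points lie above 0, from 0.082 to 1.38, and in Sham 31 of 40 do.

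The same genotype comparison without load, HCN4F-Sham against WT-Sham, compared no TAC library, although the fit took its filter, scaling and spread from all 14. Of the 40 genes, 31 had a higher fitted mean in HCN4F-Sham (51.1% of all genes did), and the median log2 fold change was 0.17 against 0.0048 over all genes. None of the 40 passed in edgeR, where 0.471% of all genes passed. DESeq2, fitted on all groups, passed 1, Ifi27l2a, and the share of all genes it passed is not given here. At an unadjusted p under 0.05 there were 8 higher genes (7.93% of all genes) and 2 lower genes (7.27% of all genes), together 25% of the list against 15.2% of all genes. The libraries did not overlap in 4 genes that were higher (10%, against 3.89% of all genes), namely Isg15, Irf7, Ifi27l2a and Iigp1. They did not overlap either in Cmpk2 and Dtx3l, which were lower (4.67% of all genes).

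Ifi27l2a, a small interferon-induced membrane protein gene, measured 6.25, 4.24, 4.13 and 4.74 CPM in WT-Sham and 9.03, 9.36, 8.10 and 7.0 CPM in HCN4F-Sham. All HCN4F libraries lay above all WT libraries, and replicate 1 was not low here. The log2 fold change was 0.79 (SE 0.180, adjusted p = 0.0618 in edgeR). The IRG GTPase Iigp1 measured 21.8, 26.2, 15.6 and 21.6 CPM in WT-Sham and 30.04, 29.7, 37.2 and 28.8 CPM in HCN4F-Sham. Its groups were likewise separate, at a log2 fold change of 0.56 (SE 0.175, adjusted p = 0.156 in edgeR).

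Isg15 was at 3.14, 3.12, 2.33 and 3.27 CPM in WT-Sham and at 3.54, 4.06, 3.65 and 4.53 CPM in HCN4F-Sham, with a log2 fold change of 0.41 (SE 0.164). Irf7 was at 9.50, 9.29, 7.07 and 8.30 CPM against 9.71, 10.04, 9.69 and 10.7 CPM, so that the gap between the groups was narrow. The RNA sensor Ifih1 (MDA5) showed the split within the group: 7.91, 8.92, 8.34 and 8.89 CPM in WT-Sham, then 7.45 CPM in HCN4F-Sham replicate 1 and 12.6, 11.97 and 12.6 CPM in replicates 2 to 4. Ifit3 was divided in the same way, with 3.75 to 5.51 CPM in WT-Sham, 4.37 CPM in HCN4F-Sham replicate 1 and 7.26, 7.63 and 8.6 CPM in the other replicates.

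Without HCN4F-Sham replicate 1, 5 of the 40 genes passed in edgeR: Ddx58, Ifi27l2a, Ifih1, Ifit2 and Ifit3, with a smallest adjusted p of 0.0171. The share of all genes that passed in that fit is not given here. HCN4F-Sham replicate 1 had the lowest endothelial (667 CPM) and red blood cell (67.9 CPM) marker sums of its group and the highest macrophage sum (226 CPM). Its share of mitochondrial reads was 17.1%, against 20.2% to 21.4% in the others of the group. Without WT-Sham replicate 1 only Ifi27l2a passed, and without each of the other libraries none did. The genes at an unadjusted p under 0.05 numbered 15 without HCN4F-Sham replicate 1 and 3 without HCN4F-Sham replicate 4. Positive values numbered 33 and 29 in the same order. No shares of all genes are given here for these fits, so the counts are a description only. Endothelial markers were higher in HCN4F-Sham in 6 of 6 and macrophage markers in 6 of 7, and none of these 13 passed in edgeR. Cardiomyocyte markers were lower in 5 of 6, of which 3 did not overlap, and their sums were separate at 63391 to 70131 CPM in HCN4F-Sham and 73320 to 74959 CPM in WT-Sham, with no pass in edgeR. The neutrophil markers S100a8 and S100a9 did not overlap, with marker sums of 0.685 to 1.43 CPM in HCN4F-Sham and 0.0382 to 0.435 CPM in WT-Sham. Their part was not tested.

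Cmpk2, a mitochondrial nucleotide kinase next to Rsad2, went against the majority. It measured 14.5, 14.2, 14.8 and 14.5 CPM in WT-Sham and 11.6, 13.01, 13.4 and 11.9 CPM in HCN4F-Sham, without overlap and at a log2 fold change of -0.22 (SE 0.103, adjusted p = 0.328 in edgeR). Rsad2 (viperin) itself was at 16.6 to 18.2 CPM in WT-Sham and 14.3 to 22.5 CPM in HCN4F-Sham, which overlapped.

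The response to TAC was compared within each genotype. In WT, 1 of the 40 genes passed in edgeR and was lower, where 4.54% of all genes passed and 1.62% were lower. The median log2 fold change of the list was -0.20 (-0.023 over all genes), and 8 of the 40 values were positive, against 46.5% of all genes. In 10 genes both WT-TAC libraries lay below all WT-Sham libraries (25%, against 20% of all genes), and in 0 genes did both lie above (19.2% of all genes). At an unadjusted p under 0.05 there were 7 lower genes (10.7% of all genes) and 0 higher genes (11.3% of all genes).

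Irgm1, an IRG GTPase that acts on membranes around intracellular microbes and in autophagy, was the gene that fell. It measured 12.8, 14.1, 13.4 and 14.7 CPM in WT-Sham and 9.49 and 9.82 CPM in WT-TAC. Both TAC libraries were below every Sham library, and the log2 fold change was -0.51 (SE 0.103, adjusted p = 0.0146 in edgeR). The call was lost without WT-Sham replicate 4 (adjusted p = 0.0538 in edgeR), WT-TAC replicate 2 (0.0993) or WT-TAC replicate 3 (0.192), and where an absolute log2 fold change over 1 was required. Over all alternatives Irgm1 passed in 11 of 15, with adjusted p from 0.00130 to 0.192.

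The neighbouring IRG genes Igtp and Irgm2 had lower means with uneven controls. Igtp measured 7.69, 16.9, 8.91 and 18.4 CPM in WT-Sham and 6.08 and 7.10 CPM in WT-TAC. Its log2 fold change was -0.97 (SE 0.293, adjusted p = 0.0749 in edgeR), and WT-Sham replicates 2 and 4 were the highest of all 14 libraries while replicates 1 and 3 were close to the TAC values. Irgm2 followed with 14.3, 26.7, 15.9 and 22.4 CPM in WT-Sham and 10.4 and 15.2 CPM in WT-TAC (log2 fold change -0.62, SE 0.256), and these overlapped. Without WT-TAC replicate 2 the value of Irgm2 was -0.39, and without replicate 3 it was -0.93. Igtp and Irgm2 share 162 exonic bases on one strand, and reads of such paralogs may be split between them, so their separate values are uncertain.

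Cmpk2 was lower after TAC in WT without overlap, at 11.95 and 10.6 CPM against 14.2 to 14.8 CPM (log2 fold change -0.37, SE 0.127, adjusted p = 0.103 in edgeR). Ifi35 was at 12.4 and 12.6 CPM against 13.6 to 16.6 CPM (log2 fold change -0.29, SE 0.122). The 7 GBP and IRG GTPases had negative values in 7 of 7, with a median of -0.49, the lowest among the roles. WT-TAC replicate 2 carried much of the list's shift: the median over the 40 genes was -0.037 without it, with 17 positive values, and -0.36 when replicate 3 was the one left out, with 4 positive values. Igtp also passed when WT-Sham replicate 1 or 3 was left out, which made 2 passing genes. Both tested neutrophil markers rose in WT after TAC (summed 1.93 and 1.17 CPM), 2 of 6 cardiomyocyte markers fell, and no endothelial, fibroblast or macrophage marker passed in edgeR. The 4 red blood cell markers had negative values (median -0.80), 3 of them without overlap, with sums of 84.7 and 94.3 CPM in WT-TAC and 96.7 to 210 CPM in WT-Sham. Both tested monocyte markers were negative (median -0.68), and neither list had a pass in edgeR. Their part was not tested.

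In HCN4F, 1 of the 40 genes passed after TAC and was higher, where 13.6% of all genes passed and 7.2% were higher. The median log2 fold change was 0.082 (-0.0067 over all genes), with 26 positive values, 65% of the list against 48.9% of all genes. At an unadjusted p under 0.05 there were 3 higher genes (14% of all genes) and 1 lower (14.3% of all genes). The libraries did not overlap in 2 higher genes (5%, against 7.95% of all genes), Usp18 and Dtx3l, and in 1 lower gene, Igtp (7.16% of all genes).

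Dtx3l, an E3 ubiquitin ligase that works in complex with PARP9, was the gene that rose. It measured 15.8, 16.8, 16.3 and 16.97 CPM in HCN4F-Sham and 21.03, 20.5, 18.5 and 22.5 CPM in HCN4F-TAC. All TAC libraries were above all Sham libraries, at a log2 fold change of 0.32 (SE 0.0832, adjusted p = 0.0155 in edgeR). The call was lost without HCN4F-TAC replicate 4 (adjusted p = 0.0554 in edgeR), and where an absolute log2 fold change over 1 was required, so that Dtx3l passed in 15 of 17 alternatives. In WT it measured 17.3, 20.3, 19.6 and 17.1 CPM in Sham and 15.3 and 17.3 CPM after TAC, which overlapped.

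Parp9, the partner of Dtx3l, lies head to head with it on chromosome 16 and shares 458 exonic bases on the opposite strand. It measured 11.1, 14.3, 12.8 and 12.7 CPM in HCN4F-Sham and 16.7, 15.5, 13.8 and 15.5 CPM in HCN4F-TAC, with 1 Sham library above the lowest TAC library. Its log2 fold change was 0.27 (SE 0.0894, adjusted p = 0.0517 in edgeR). Whether counting used strand is not given in the sources used here, so reads in the shared stretch could belong to either gene.

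All 7 GTPases had negative values after TAC in HCN4F as well, with a median of -0.26 and a range from -0.50 (Iigp1) to -0.0024 (Irgm1), whereas the IFIT genes had 4 of 4 positive values with a median of 0.21. Iigp1 measured 30.2, 16.1, 19.99 and 23.1 CPM in HCN4F-TAC, with replicate 1 inside the Sham range of 28.8 to 37.2 CPM (log2 fold change -0.50, SE 0.175, adjusted p = 0.0771 in edgeR). Igtp measured 12.3, 13.2, 13.3 and 12.7 CPM in HCN4F-Sham and 9.21, 9.06, 7.81 and 10.9 CPM in HCN4F-TAC (log2 fold change -0.48, SE 0.229). Without HCN4F-TAC replicate 3, Dtx3l, Irf7 and Parp9 passed in edgeR and the median over the 40 genes was 0.17. Leaving out HCN4F-Sham replicate 1, HCN4F-Sham replicate 2 or HCN4F-TAC replicate 1 gave 2 passing genes each, Dtx3l with Gbp2, Parp9 or Iigp1 respectively. Of the Sham libraries, leaving out replicate 1 gave a median of 0.030, replicate 2 a median of 0.14 and replicate 4 a median of 0.13. After TAC in HCN4F, 4 of 6 cardiomyocyte markers fell and 1, Actc1, rose (0.29 on the log2 scale), 2 of 5 fibroblast markers rose, and no endothelial or macrophage marker passed in edgeR. Nppa (3.21 on the log2 scale) and the B cell marker Cd79a also rose, while the atrial markers Myl7 (adjusted p = 0.213) and Myl4 (adjusted p = 0.147) did not pass in edgeR. Their part was not tested.

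**Figure D4:**
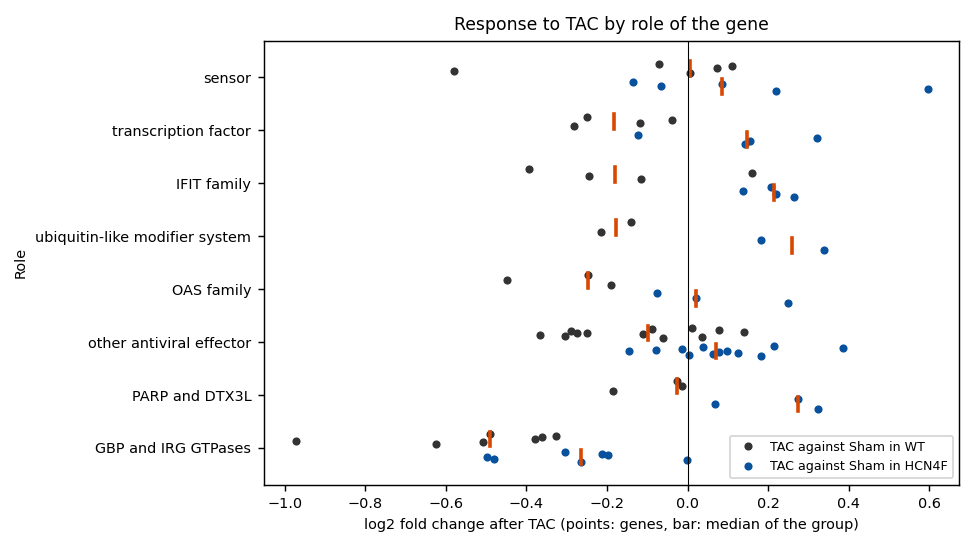
Log2 fold change after TAC for each of the 40 genes (points) by role, in WT (dark) and HCN4F (blue); the orange bar is the median of the role. The 7 GBP and IRG GTPases have negative values in both genotypes, with medians of -0.49 and -0.26.

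**Figure D5:**
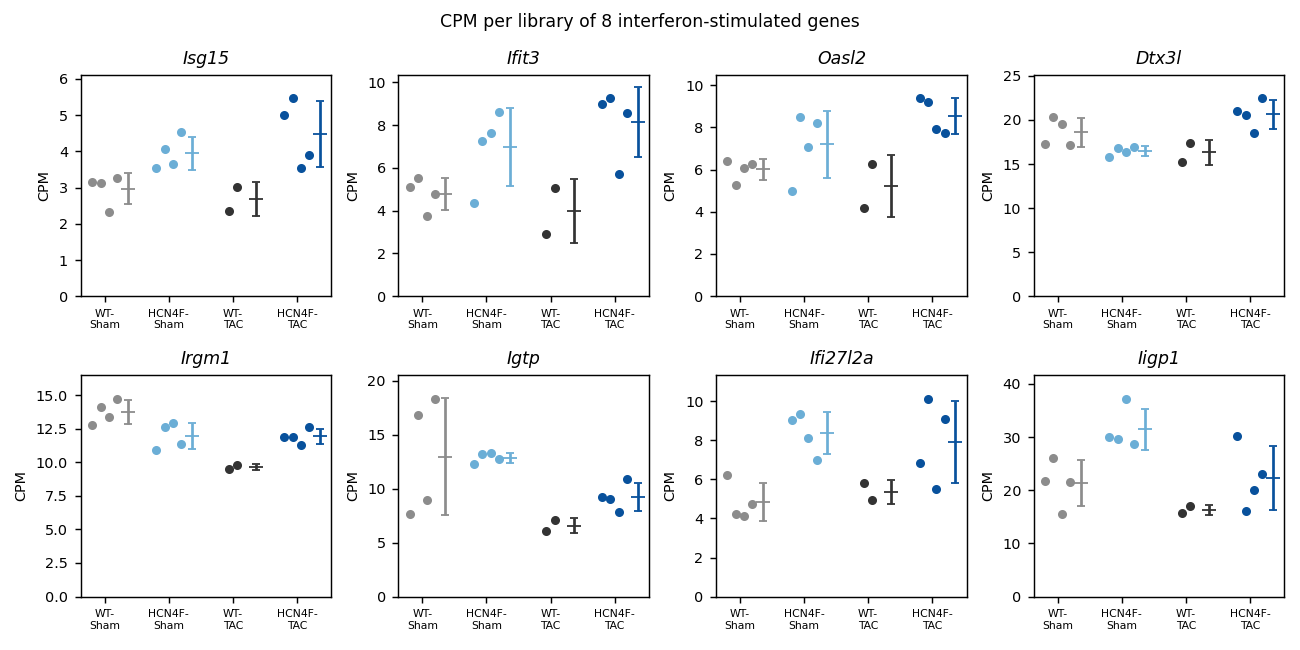
CPM of 8 of the genes in each library (points), with the group mean and SD (bars; n = 4, or 2 for WT-TAC). Irgm1 is below all WT-Sham libraries in both WT-TAC libraries, at 9.49 and 9.82 CPM, and Igtp is split within WT-Sham between 7.69 and 18.4 CPM.

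Both responses were set against each other in an interaction test, HCN4F minus WT. None of the 40 passed in edgeR, nor in DESeq2, and 0% of all genes passed in edgeR, with a smallest adjusted p over all genes of 0.168. The differences were positive in 33 of the 40 genes (51.3% of all genes), with a median of 0.27 (0.0070 over all genes), and 5 had an unadjusted p under 0.05, all positive (4.88% of all genes). These were led by Dtx3l (difference 0.51, SE 0.132, adjusted p = 0.394 in edgeR) and Irgm1 (0.51, SE 0.132, adjusted p = 0.394 in edgeR). Cmpk2 (0.49, SE 0.164), Stat2 (0.43, SE 0.184) and Zbp1 (1.18, SE 0.530) followed. In 20 genes the value after TAC was negative in WT and positive in HCN4F, and in 2 the reverse. It was negative in both genotypes in 12 and positive in both in 6. The shares of all genes with these signs were not determined, so the counts are a description only. Leaving out WT-TAC replicate 2 brought the median difference to 0.14 with 27 positive values, and leaving out replicate 3 to 0.41 with 37. The omission of HCN4F-Sham replicate 1 gave 0.20 and that of HCN4F-TAC replicate 3 gave 0.35, again with no passing gene, and a difference between the TAC responses was not shown for any of these genes.

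Bst2, Lgals3bp and Irf1, among the most abundant genes of the list, did not pass in any of the 5 tests in edgeR. Bst2 was at 22.1 to 25.1 CPM in WT-Sham, 19.3 to 28.4 in HCN4F-Sham, 17.8 and 21.5 in WT-TAC and 21.3 to 29.4 in HCN4F-TAC. Lgals3bp, a secreted galectin-binding glycoprotein, was at 26.99 to 32.4, 27.6 to 42.1, 26.6 and 31, and 29.9 to 50.02 CPM in the same order. Irf1 was at 21.03 to 23.8, 22.2 to 27.98, 15.9 and 21.6, and 20.5 to 24.1 CPM.

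Upstream of the list, interferon itself was at the floor of the assay. Of 10 interferon genes, 0 passed the filter on low counts. Of 4 interleukin genes listed with them, Il15 and Il18 passed it. Ifnb1 and Ifng each had 1 read in a single library and 0 in the others, and a count of 0 allows up to 0.0852 to 0.134 CPM depending on the library. Il15, which is itself induced by interferon and supports natural killer cells, fell after TAC in HCN4F. It measured 17.2, 14.3, 15 and 17.1 CPM in HCN4F-Sham and 10.4, 5.50, 9.86 and 8.42 CPM in HCN4F-TAC, without overlap (log2 fold change -0.90, SE 0.150, adjusted p = 0.00112 in edgeR). In WT it was at 16.2 to 18.4 CPM in Sham and 14.7 and 11.6 CPM after TAC, also without overlap, but did not pass (-0.42, adjusted p = 0.186 in edgeR), and the difference between the responses did not pass either (adjusted p = 0.539 in edgeR).

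The receptors were well covered and none of them passed. Ifnar1 ranged from 18.1 to 23.9 CPM over all libraries, Ifnar2 from 20.05 to 27.6, Ifngr1 from 35.3 to 59.3 and Ifngr2 from 109 to 154 CPM. Of the 11 receptor and kinase genes tested, Stat3, which serves the interleukin-6 family, rose after TAC in HCN4F (log2 fold change 0.47, SE 0.0974, adjusted p = 0.00463 in edgeR) and 10 did not pass, where 7.2% of all genes passed with higher values. In WT Stat3 was at 91.4 to 109 CPM in Sham and 129 and 126 CPM after TAC, without overlap and without passing (0.33, adjusted p = 0.109 in edgeR), and the difference between the responses did not pass (adjusted p = 0.826 in edgeR). Of the 11 genes, 5 were higher without overlap after TAC in WT (45.5%, against 19.2% of all genes).

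Of 21 sensors and adaptors outside the list, 1 rose after TAC in WT and 4 rose in HCN4F, and none fell, where 4.54% of all genes passed in WT and 7.2% passed with higher values in HCN4F. The endotoxin receptor gene Tlr4 rose in both, from 8.83 to 10.8 CPM in WT-Sham to 16.4 and 15.7 CPM in WT-TAC (log2 fold change 0.74, SE 0.181, adjusted p = 0.0325 in edgeR), and from 6.57 to 10.5 CPM to 14.4 to 23.8 CPM in HCN4F (1.08, SE 0.153, adjusted p = 0.000324 in edgeR). Tlr9 (0.98), Irf8 (0.51) and Traf3 (0.41) rose in HCN4F on the log2 scale. Tmem173, the gene of the adaptor STING, did not pass, at 2.18 and 5.30 CPM in WT-TAC and 5.05 to 7.01 CPM in HCN4F-TAC.

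Of 14 genes that restrain the pathway, 1 rose in WT after TAC, and 3 rose and 1 fell in HCN4F, beside the same 4.54% in WT and 13.6% in either direction in HCN4F. Nlrc3, a negative regulator of STING signalling, rose in both genotypes, from 1.03 to 1.34 CPM to 2.14 and 5.70 CPM in WT (log2 fold change 1.69, SE 0.413, adjusted p = 0.0369 in edgeR) and from 1.05 to 1.51 CPM to 4.56 to 12.7 CPM in HCN4F (2.79, SE 0.346, adjusted p = 0.000218 in edgeR). Socs3 (1.27) and the phosphatase gene Ptpn1 (0.32) rose in HCN4F, and Pias1 (-0.29) fell. Neither these nor the sensors passed between the genotypes.

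A second list of 77 further interferon-stimulated genes, of which 70 were tested, was also examined. After TAC, HCN4F against WT gave 60 positive (85.7%, against 50.7% of all genes) and 10 negative values with a median log2 fold change of 0.27, and 22 genes did not overlap (31.4%, against 11.3% of all genes). None passed in edgeR, and 14 had an unadjusted p under 0.05 (20%, against 12.5% of all genes). In a check added after the data were seen, 57 of the 70 were positive without WT-TAC replicate 2 (median 0.21) and 60 without replicate 3 (median 0.41). Without HCN4F-TAC replicate 3, 60 were positive and 4 passed in edgeR: Ifi213, Ifitm3, Slfn2 and Slfn8. The share of all genes that passed in that fit is not given here. After TAC in WT, 16 of the 70 were positive (22.9%, against 46.5% of all genes) and 14 did not overlap and were lower (20%, the same share as of all genes). After TAC in HCN4F 39 were positive, in Sham 46 were positive in HCN4F against WT, and the difference of the responses was positive in 50. After TAC 1 of the 70 passed in WT (4.54% of all genes) and 2 in HCN4F (13.6% of all genes), all lower. In WT, Tgtp1, an IRG GTPase with a near-identical copy, fell (log2 fold change -1.30, SE 0.328, adjusted p = 0.0357 in edgeR), from 1.92, 3.08, 2.26 and 2.19 CPM to 0.698 and 1.17 CPM. In HCN4F, Ifi205 (-0.54) and the tryptophan-degrading enzyme gene Ido1 (-1.37, at 3 to 27 reads per library) fell after TAC.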

How the data were processed

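Left ventricular RNA was selected for polyA and sequenced in 14 libraries. The authors deposited raw gene counts from reads placed on GRCm38 (per the labels); aligner and counter are not given in the sources used here. The study describes 16 samples, and 2 columns of the table that match no sample here were not used, so WT-TAC has 2 libraries; others are not analysed here. The study's methods call the samples of a group biological replicates, and the labels name no animals, so p-values measure the spread between these libraries. Replicates of a group differed by more than counting noise (chi-square per gene 6.30 to 62.9).

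Counts were tested with edgeR 4.0.16 in R 4.3.3 (quasi-likelihood, robust, TMM scaling, filterByExpr, 1 mean per group over all 14 libraries). Benjamini-Hochberg adjustment covered 15292 genes, and a gene passed at an adjusted p under 0.05. CPM and log2 CPM (prior count 2) used TMM library sizes. Non-overlap means that all values of one group exceed all of the other. Exon lengths and overlaps came from GENCODE M21 (99.3% of gene IDs found), and promoter windows from RefSeq GRCm38.p6. The scripts were tested on simulated data. Alternatives were DESeq2 1.42.0, other filters, scaling, dispersion and samples, the replicate number as a block, each library left out (for the second gene list after TAC, added after seeing the data), and an absolute log2 fold change over 1. Genes named with all libraries passed a test, had 1 of the 5 smallest unadjusted p-values in a comparison, or had 1 of the 5 highest levels per length; other genes were named for their role or from short counts after their values were seen. 1 gene of the pathway lists is not reported here. The genes and lists were chosen with earlier results of these data known. Counting intervals and the limits for 0 reads (3 reads) cover counting error only.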

Additional observations from a re-analysis of the deposited data

Results flagged for a closer look

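In groups of 4 libraries, a lowest or highest library was singled out where its gap to the nearest other library exceeded Dixon's critical share of the range (0.829). Of 66 groups examined 6 were singled out, and chance gives about 1 in 20, here 3.3. The level over the 40 genes, on the log2 scale, was -0.13 in HCN4F-Sham replicate 1 against 0.30 to 0.31 in the other 3 libraries, and 0.00277 in HCN4F-TAC replicate 3 against 0.29 to 0.31. Ifih1 was at 7.45 CPM in HCN4F-Sham replicate 1, with 11.97 to 12.6 CPM in the others. Iigp1 stood out upwards in HCN4F-Sham replicate 3, at 37.2 CPM against 28.8 to 30.04 CPM. Within WT-Sham, Isg15 was low in replicate 3 (2.33 CPM against 3.12 to 3.27) and Ifit2 was high in replicate 2 (12.2 CPM against 10.3 to 10.6).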

How the results depend on the processing

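None of the 25 named gene differences and 5 medians changed direction under the alternatives run. The number of positive genes ranged over alternatives from 4 to 17 for TAC in WT, 22 to 30 for TAC in HCN4F, 26 to 33 for HCN4F against WT in Sham and 27 to 37 for the difference of the responses, and after TAC every tested gene was higher in HCN4F in all 14 alternatives. Counts of passing genes were small and moved most, and no share of all genes is given beside them for the alternatives. For TAC in WT (1 gene), DESeq2 on all groups gave 2 (Igtp, Irgm1), DESeq2 on the compared groups 2 (Gbp2, Irgm1), edgeR on the compared groups 2 (Cmpk2, Irgm1), and a required absolute log2 fold change over 1 gave 0. For TAC in HCN4F (1 gene), these gave 3 (Dtx3l, Iigp1, Parp9), 2, 2 (Dtx3l, Igtp) and 0, and DESeq2's size factors in edgeR gave 2 (Dtx3l, Parp9). For HCN4F against WT in Sham (0 genes), DESeq2 on all groups gave 1 and on the compared groups 2 (Ifi27l2a, Iigp1), edgeR on the compared groups 1 and no filter on low counts 1 (Ifi27l2a). For HCN4F against WT after TAC (0 genes), DESeq2 gave 1 in both forms (Ifit3) and no filter 1 (Oasl2). Leaving out 1 library at a time gave 0 to 2, 0 to 3, 0 to 5 and 0 to 5 passing genes in these comparisons, and medians of -0.36 to -0.037, 0.030 to 0.17, 0.14 to 0.26 and 0.28 to 0.52. Where 1 WT-TAC library remained, it was assumed to vary like the other groups. The difference of the responses stayed at 0 passing genes in all 21 alternatives. With the replicate number as a block, 1, 1, 0, 0 and 0 genes passed and the median after TAC, HCN4F against WT, was 0.40; same-numbered libraries deviated together with correlations of only -0.12 to 0.16, and 5 of 14 libraries correlated best with their own number, so the numbers pair no samples. Of the single genes named, 29 values newly passed under some alternative and 6 lost their pass. WT-TAC rests on 2 libraries, and Mx1 and Zbp1 on few reads. In edgeR on the compared groups 39 of the 40 genes were tested.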
